A study of Mus musculus with 64 samples.

Results

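The 6 genes described here are Bdnf and Ntf3, which encode the neurotrophins brain-derived neurotrophic factor and neurotrophin-3, and Ntrk2, Ntrk3, Ngfr and Sort1, which encode their receptors TrkB, TrkC, p75 and sortilin. They were taken by gene symbol from count tables of 48795 genes, and all 6 symbols were found once. RNA came from the striatum and cerebral cortex of 32 C57BL/6 mice aged 6 months, which gave 64 bulk tissue libraries. The mice carried 1 of 4 genotypes. Q140 Polq+/- mice (labelled Het (Q140) KI X Polq+/-) were heterozygous for both the Q140 knock-in, an expanded CAG repeat in the mouse huntingtin gene Htt, and for Polq, the gene of DNA polymerase theta. Q140 mice (Het (Q140) KI) carried the knock-in alone, Polq+/- mice carried the Polq allele alone, and wild-type (WT) mice carried neither. Each genotype had 8 mice, 4 female and 4 male, and each mouse gave its striatum and its cortex. The 16 mice with the knock-in are called carriers and the other 16 non-carriers.

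BDNF acts mainly through TrkB, and neurotrophin-3 mainly through TrkC. Both receptors are tyrosine kinases that signal through the Ras-MAPK, PI3K-Akt and phospholipase C routes, and both genes also make shortened receptors without the kinase. The p75 receptor binds all neurotrophins and, with sortilin, their uncut precursors. Striatal spiny projection neurons make little BDNF of their own and receive most of it from the axons of cortical neurons, which is why supply in cortex and receptors in striatum are commonly examined together in Huntington's disease models.

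Bdnf lies on chromosome 2 (109674700 to 109727007, plus strand, GRCm38) and has 11 annotated transcripts, which begin at several alternative first exons. RefSeq gives 7 starts for it on GRCm38.p6. The 250 bases before each start were searched on both strands for the cyclic AMP response element TGACGTCA and for the variant TCACGTCA, the calcium response element known from the start of Bdnf that activity regulates. These 8 bases are shown because they are a known point at which neuronal activity acts on Bdnf. Their part in the Bdnf levels given below was not tested. In the stretch below, which holds the last 100 bases before start 3 of 7 (chr2:109692336-109692435, plus strand), the capitals mark the match.
Bdnf, start 3: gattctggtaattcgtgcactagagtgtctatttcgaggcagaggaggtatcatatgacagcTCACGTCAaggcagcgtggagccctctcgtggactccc
The match ended 30 bases before the start. Either motif was found in 1.89% of 32544 mouse promoter windows of this length, TCACGTCA alone in 0.353%. None of the other 6 Bdnf windows held either motif, nor did the windows of Ntf3, Ntrk2 and Ngfr, which says only that these letters are not there. Counts were made per gene, so the start that a Bdnf read came from cannot be told.

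Levels of different genes were compared as FPKM, fragments scaled by gene length and library size, which the authors deposited. In WT striatum the order of the medians was Sort1 with 72.7 FPKM, Ntrk2 with 45.7, Ntrk3 with 9.61, Ngfr with 0.728, Bdnf with 0.0603 and Ntf3 with 0.0158. The striatum of WT mice thus held much receptor mRNA and very little mRNA of either neurotrophin. The ranges of Bdnf (0.00489 to 0.145 FPKM) and Ntf3 (0 to 0.14 FPKM) overlapped, and those of no other neighbours in this order did. In WT cortex the medians were 99.2 FPKM for Sort1, 54.4 for Ntrk2, 6.37 for Ntrk3, 5.96 for Bdnf, 0.282 for Ngfr and 0.227 for Ntf3. In cortex the ranges of Ntrk3 (5.34 to 6.94 FPKM) and Bdnf (4 to 7.57 FPKM) overlapped, as did those of Ngfr (0.178 to 0.345 FPKM) and Ntf3 (0.124 to 0.364 FPKM).

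**Figure D1:**
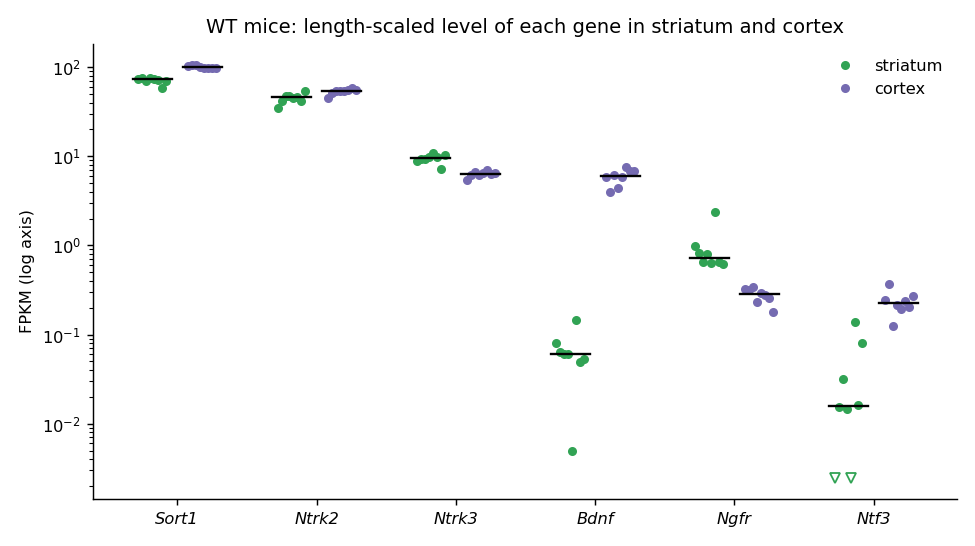
Level of the 6 genes in the WT mice, as FPKM on a log axis, with striatum left of cortex. Points are mice (8 in each tissue), bars are medians, and open triangles at the foot mark libraries listed at 0. Bdnf had a median of 0.0603 FPKM in striatum and 5.96 FPKM in cortex.

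Within WT mice all 6 genes differed between striatum and cortex in a fit that joined the tissues and kept each mouse as a block (64 libraries), at an adjusted p under 0.05, the threshold used for every call below (edgeR quasi-likelihood test, Benjamini-Hochberg adjustment over all genes tested). In that comparison 77.2% of 19091 tested genes were called, 38.1% lower and 39.1% higher in striatum, and of the 6 genes 4 were lower and 2 higher. Bdnf was lower in striatum by the widest margin of the 6, with 1 to 34 reads in the striatal libraries of WT mice, against 876 to 1592 reads in their cortical libraries. Its log2 difference, striatum over cortex, was -6.50 (SE 0.12, adjusted p = 1.42e-32), a ratio of 0.011. Ntf3 was also lower in striatum (log2 -2.66, SE 0.41, adjusted p = 2.21e-07). Sort1 (log2 -0.53, SE 0.029) and Ntrk2 (log2 -0.29, SE 0.028) were moderately lower in striatum, with adjusted p = 1.31e-20 and 2.32e-12. Ntrk3 (log2 0.55, SE 0.054, adjusted p = 6.28e-11) and Ngfr (log2 1.64, SE 0.15, adjusted p = 6.2e-13) were higher in striatum. For Bdnf, Ntrk3, Ngfr and Sort1 the 8 striatal and the 8 cortical WT values did not overlap. The share of all genes without such overlap is not given here.

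Libraries held 28.7 to 40.6 M counted reads in striatum and 30.9 to 40.1 M in cortex. Markers of the tissues were as labelled: 10 spiny neuron markers summed to 7540 to 14400 CPM (counts scaled to the library size, after TMM scaling within the tissue) in striatum and 385 to 466 CPM in cortex, and 12 cortical excitatory neuron markers to 1040 to 1570 CPM in striatum, most of it Nrgn, and 4160 to 4560 CPM in cortex. Slc17a7, the vesicular glutamate transporter of cortical excitatory neurons, averaged 3.04 CPM in carrier and 4.52 CPM in non-carrier striatum, against 1270 and 1290 CPM in cortex. Polq was at 0.187 to 2.42 CPM in the 16 striata labelled Polq+/-, with or without the knock-in, against 2.24 to 4.08 CPM in the other 16, and 4 mice labelled Polq+/- were far below the rest of theirs. In striatum 3 libraries stood apart. WT M2 (male replicate 2) had 256 CPM of 7 cerebellar granule markers, against 30.3 CPM or less elsewhere, Polq+/- F3 (female replicate 3) had 1430 CPM of 9 choroid plexus markers, against 67.4 CPM or less, and WT M3 had the lowest sums of astrocyte, hippocampal and thalamic markers. Values of the 6 genes that these libraries or mice changed are given with and without them.

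In striatum, receptor genes were lower in mice with the knock-in. Of the 5 genes that passed the filter on low counts, 3 were lower in Q140 than in WT mice (Ntrk2, Ntrk3 and Sort1) and none was higher, where 32.1% of 18270 tested genes were called and 15.2% of all tested were lower. The same 3 genes were lower in Q140 Polq+/- than in Polq+/- mice, with calls for 31.4% of the genes tested there and a lower level for 15.3%. Over both backgrounds together, carriers against non-carriers, 3 of 5 were lower and 44.8% of all genes were called, 21.2% lower. With so many genes called, the count alone does not set these genes apart. The share of all genes without overlap, or with all carriers below the non-carrier median, is not given here. Such statements below describe single genes. Without the 3 libraries that stood apart, 3 of 5 members were again called in carriers, where 46.3% of 18367 tested genes were called.

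Ntrk3, the gene of TrkC, had the largest change. Its striatal level was 202 to 237 CPM (median 226) in Q140 Polq+/- mice and 200 to 232 CPM (median 225) in Q140 mice, against 285 to 338 CPM (median 301) in Polq+/- mice and 217 to 337 CPM (median 295) in WT mice. The Q140 Polq+/- and Polq+/- values did not overlap, and the 217 CPM of WT M3 was the sole non-carrier value inside the range of carriers. All 16 carriers lay below the median of non-carriers. The log2 fold change was -0.44 (SE 0.055, adjusted p = 9.02e-08) in Q140 Polq+/- against Polq+/- mice and -0.39 (SE 0.055, adjusted p = 9.16e-07) in Q140 against WT mice. For carriers it was -0.42 (SE 0.039, adjusted p = 8.55e-11), a ratio of 0.749. Leaving out any 1 of the 32 mice left this value between -0.44 and -0.40.

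Sort1 encodes sortilin, which sorts proneurotrophins inside the cell and pairs with p75 at its surface. It fell less than Ntrk3, yet with little spread between carriers. Striatal Sort1 was 474 to 519 CPM (median 490) in Q140 Polq+/- mice and 474 to 511 CPM (median 489) in Q140 mice, against 526 to 574 CPM (median 553) in Polq+/- mice and 442 to 593 CPM (median 561) in WT mice. Again the Q140 Polq+/- and Polq+/- values did not overlap, and WT M3 at 442 CPM was the lowest of all 32 striata. The log2 fold change was -0.16 in carriers (SE 0.026, adjusted p = 2.83e-06), with 16 of 16 below the non-carrier median. It was -0.155 in Q140 Polq+/- against Polq+/- mice (adjusted p = 0.000961) and -0.165 in Q140 against WT mice (adjusted p = 0.000509), both by the edgeR test.

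Ntrk2, the gene of TrkB, was lower by a similar size but with more overlap. It was at 482 to 638 CPM (median 514) in Q140 Polq+/- mice and 496 to 602 CPM (median 553) in Q140 mice, against 514 to 692 CPM (median 639) in Polq+/- mice and 491 to 749 CPM (median 644) in WT mice. The groups overlapped on each background, although all 16 carriers lay below the median of non-carriers. The log2 fold change in carriers was -0.20 (SE 0.051, adjusted p = 0.00146), a ratio of 0.868. It was -0.22 in Q140 Polq+/- against Polq+/- mice (adjusted p = 0.0202) and -0.19 in Q140 against WT mice (adjusted p = 0.0433). The Q140 against WT call did not survive leaving out any of 11 single mice (Q140 F1, F2, F3, M1, M2 and M4, and WT F3, F4, M1, M2 and M4; adjusted p up to 0.108), with log2 fold changes of -0.194 to -0.153 without them. It was also not called with the plate column as a factor (-0.175, adjusted p = 0.0897) or with no low-count filter (-0.191, adjusted p = 0.0831). Plate column is the column of the plate that held a library. Carriers and non-carriers were unevenly spread over these columns in both tissues, so column and knock-in cannot be fully told apart. The Q140 Polq+/- call was lost without the 3 libraries that stood apart (-0.193, adjusted p = 0.0576). On the deposited FPKM neither was called (limma on log2 values with a pseudocount of 0.1; adjusted p = 0.185 against WT and 0.111 on the Polq+/- background), while that of all carriers was kept in each of 13 alternatives (adjusted p up to 0.0278).

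**Figure D2:**
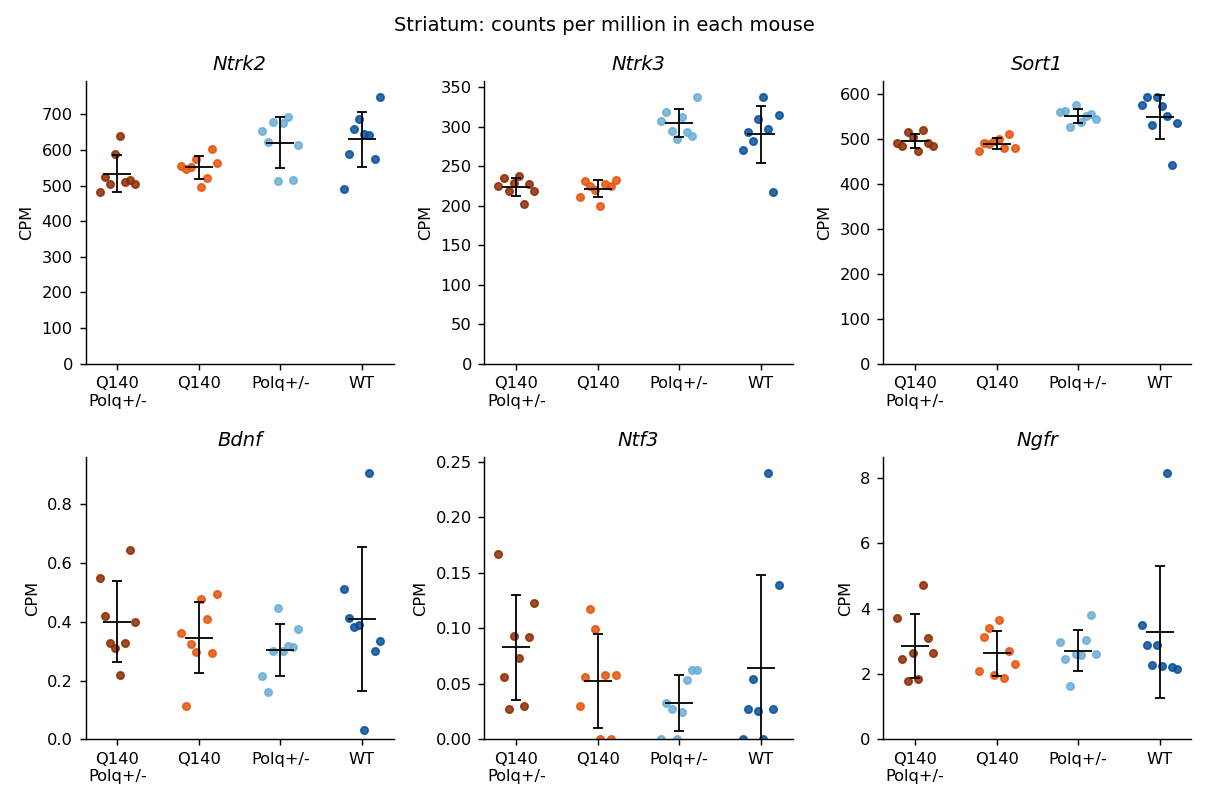
Striatal level of each gene in every mouse, in TMM-scaled CPM on axes that start at 0, with Q140 Polq+/- and Q140 mice left of Polq+/- and WT mice. Points are mice (8 in each group) and bars are the mean ± SD. All 16 carriers lay below the non-carrier median for Ntrk2, Ntrk3 and Sort1, while Bdnf, Ntf3 and Ngfr show overlapping groups with WT M2 on top.

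Spiny neuron markers moved with these 3 receptors in the same libraries. Of the 10, 9 were lower and 1 (Tac1) higher in carriers, where 44.8% of all genes were called, 21.2% lower. The sum of the 10 was 7540 to 8860 CPM in carriers, against 12100 to 14400 CPM in non-carriers. None of the 10 was at 0 in any striatal library. Astrocytes also make much TrkB, mostly in its short form. Of 10 astrocyte markers 3 were lower and 1 higher, so 40% were called, near the share of all genes. The astrocyte sums were 3630 to 3940 CPM in carriers and 3520 to 4670 CPM in non-carriers. The 7 markers of cholinergic interneurons, another class that makes these receptors, had 0 lower and 1 higher, with sums of 179 to 215 CPM in carriers and 189 to 228 CPM in non-carriers. In bulk tissue, fewer cells of a type and less RNA per cell cannot be told apart, and the part of these cell types in the receptor values was not tested.

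Striatal Bdnf was close to the limit of counting in every genotype. The libraries held 9 to 23 Bdnf reads (median 12.5) in Q140 Polq+/- mice and 4 to 17 reads (median 11.5) in Q140 mice, against 5 to 16 reads (median 11.5) in Polq+/- mice and 1 to 34 reads (median 14.5) in WT mice. Both the highest and the lowest value belonged to WT mice, and the groups overlapped fully. The log2 fold change in carriers was 0.06 by edgeR (95% interval -0.38 to 0.50, adjusted p = 0.846), so changes within this interval were not excluded. The value was 0.39 in Q140 Polq+/- against Polq+/- mice (adjusted p = 0.368) and -0.27 in Q140 against WT mice (adjusted p = 0.546). Without WT M2, the library with the highest Bdnf and the cerebellar granule markers, it was 0.0092 in Q140 against WT mice and 0.20 in carriers.

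Ntf3 had 1 to 7 reads in the striatum of Q140 Polq+/- mice and 0 to 4 reads in that of Q140 mice, against 0 to 2 reads in Polq+/- mice and 0 to 9 reads in WT mice. It did not pass the filter and was not tested. No read was counted in 2 of 8 Q140, 2 of 8 Polq+/- and 2 of 8 WT striata, and a count of 0 allows up to 3 reads in a library, for counting error only. The library with 9 reads was again WT M2.

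Ngfr, the gene of p75, is made in adult striatum by few cells. It was at 1.8 to 4.74 CPM (median 2.64) in Q140 Polq+/- mice and 1.87 to 3.65 CPM (median 2.51) in Q140 mice, against 1.63 to 3.82 CPM (median 2.62) in Polq+/- mice and 2.17 to 8.16 CPM (median 2.58) in WT mice. The medians of the 4 genotypes lay close together, and 1 library, WT M2, was far above the others. The log2 fold change in carriers was -0.12 (95% interval -0.47 to 0.24, adjusted p = 0.622). Without WT M2 it was 0.045 (Q140 against WT: 0.015, against -0.31 with it), so its sign turned on that library.

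In cortex, 1 of the 6 genes was called. Sort1 was lower in Q140 than in WT mice, where 0.348% of 18116 tested genes were called (0.204% lower), and lower in Q140 Polq+/- than in Polq+/- mice, where 0.337% were called (0.215% lower). It was also the 1 of 6 called in carriers, against 2.46% of all genes, 1.61% lower. Cortical Sort1 was 693 to 742 CPM (median 721) in Q140 Polq+/- mice and 700 to 755 CPM (median 726) in Q140 mice, against 748 to 781 CPM (median 760) in Polq+/- mice and 736 to 816 CPM (median 757) in WT mice. All 16 carriers were below the non-carrier median, and the Q140 Polq+/- and Polq+/- ranges did not overlap. The change was small and tight: log2 -0.082 in carriers (SE 0.012, adjusted p = 4.1e-05), a ratio of 0.945. It was -0.083 (adjusted p = 0.0173) on the Polq+/- background and -0.081 (adjusted p = 0.0183) against WT. The Q140 against WT call did not survive leaving out Q140 M1 or WT F3 (adjusted p = 0.0519 and 0.0571), nor several other settings, and the Q140 Polq+/- call was lost without the 4 mice of low Polq, on fewer mice and at a similar size (-0.078, adjusted p = 0.191).

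Cortical Bdnf, the supply for the striatum, was at 22.5 to 39 CPM (median 29.8) in Q140 Polq+/- mice and 31.8 to 40.3 CPM (median 34) in Q140 mice, against 27.2 to 43.9 CPM (median 37.3) in Polq+/- mice and 24.9 to 47.3 CPM (median 37.4) in WT mice. WT mice alone spanned nearly the whole range of the 32 cortices, and all groups overlapped. The log2 fold change in carriers was -0.19 (SE 0.083, 95% interval -0.36 to -0.021), with 14 of 16 carriers below the non-carrier median. Its unadjusted p was 0.0288 and its adjusted p 0.271 by edgeR, so it was not called. On the Polq+/- background the value was -0.31 (unadjusted p = 0.014, adjusted p = 0.334), and against WT it was -0.074 (95% interval -0.31 to 0.17, adjusted p = 0.896). The difference between these 2 effects was -0.23 (95% interval -0.57 to 0.11, adjusted p = 0.992). With the plate column as a factor the value on the Polq+/- background was -0.113 (adjusted p = 0.892) and the difference between the effects -0.045. Carriers and non-carriers were unevenly spread over the columns here too. Over 12 other ways of processing, the carrier value ran from -0.195 to -0.090, with adjusted p of 0.191 or more.

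The remaining receptors pointed the same way in cortex without a call. Cortical Ntrk2 was 622 to 772 CPM (median 652) in carriers, against 628 to 806 CPM (median 748) in non-carriers, a log2 fold change of -0.11 (unadjusted p = 0.00667, adjusted p = 0.127). Cortical Ntrk3 was 152 to 197 CPM (median 178) in carriers, against 162 to 210 CPM (median 193) in non-carriers, a log2 fold change of -0.093 (adjusted p = 0.224). Ngfr was 0.456 to 1.19 CPM (median 0.771) in carriers, against 0.62 to 1.37 CPM (median 0.975) in non-carriers, a log2 fold change of -0.30 (95% interval -0.54 to -0.054, adjusted p = 0.217). The ranges overlapped widely for all 3. The unadjusted p by edgeR was 0.0193 for Ntrk3 and 0.018 for Ngfr. Of the 18116 genes tested in this comparison, 2611 had an unadjusted p under 0.05. Ntf3, with 7 to 30 reads in carriers and 4 to 35 reads in non-carriers, had a log2 fold change of 0.195 (95% interval -0.22 to 0.61, adjusted p = 0.736).

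**Figure D3:**
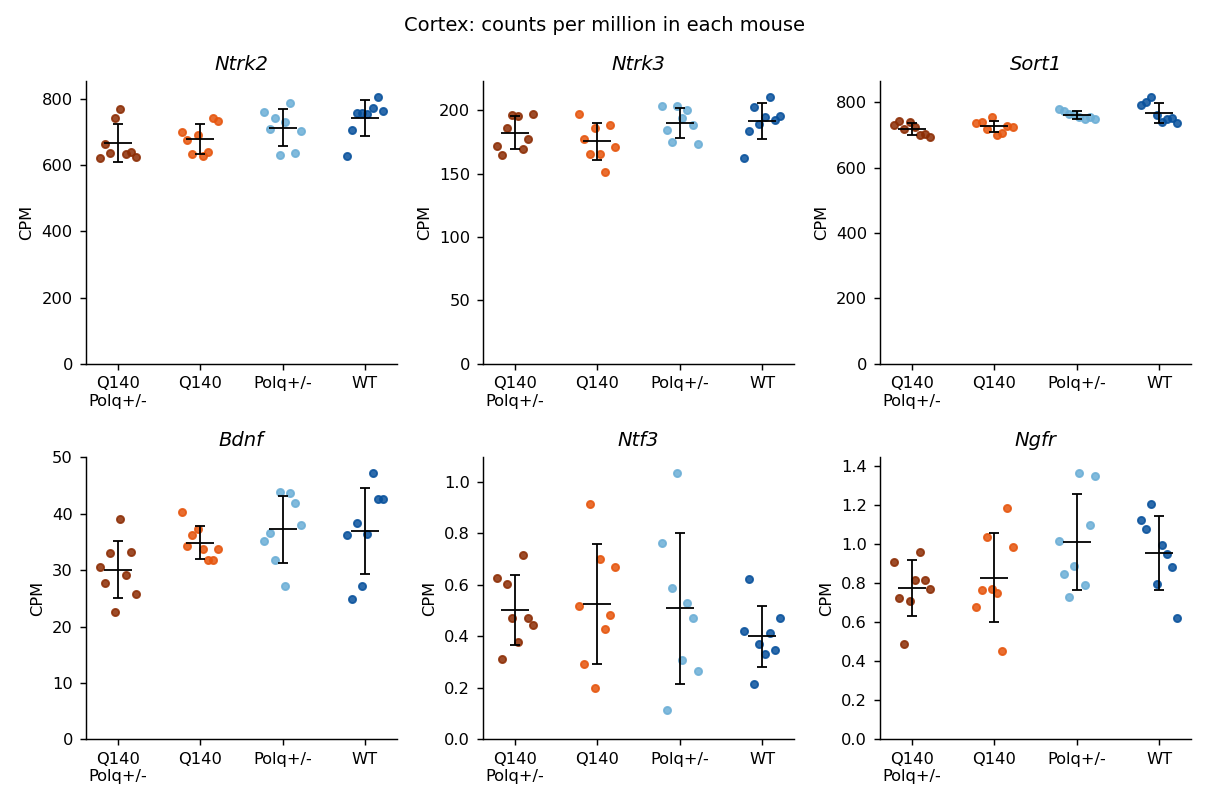
Cortical level of each gene in every mouse, in TMM-scaled CPM on axes that start at 0, with Q140 Polq+/- and Q140 mice left of Polq+/- and WT mice. Points are mice (8 in each group) and bars are the mean ± SD. Sort1 was at 693 to 755 CPM in carriers, against 736 to 816 CPM in non-carriers, and Bdnf at 22.5 to 40.3 CPM, against 24.9 to 47.3 CPM.

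Whether the knock-in acted more strongly in striatum than in cortex was tested as a difference of differences in the joint fit of 64 libraries, where 32.1% of 19091 genes were called, 16.3% with the lower effect in striatum. For Ntrk3 the effect in striatum minus that in cortex was -0.325 (SE 0.054, adjusted p = 1.35e-05). For Ntrk2 it was -0.094 (SE 0.028, adjusted p = 0.00792), and for Sort1 -0.083 (SE 0.029, adjusted p = 0.0229). The 3 receptors thus fell further in striatum, while no difference was called for Bdnf (0.24, 95% interval -0.20 to 0.67), Ntf3 (0.33, 95% interval -0.63 to 1.29) or Ngfr (0.21, 95% interval -0.11 to 0.53). On the deposited FPKM Ntrk3 alone was called, with adjusted p = 0.322 for Ntrk2 and 0.449 for Sort1 (pseudocount 0.1). Without the mouse as a block Ntrk2 was not called, at a similar size (-0.099, adjusted p = 0.268).

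**Figure D4:**
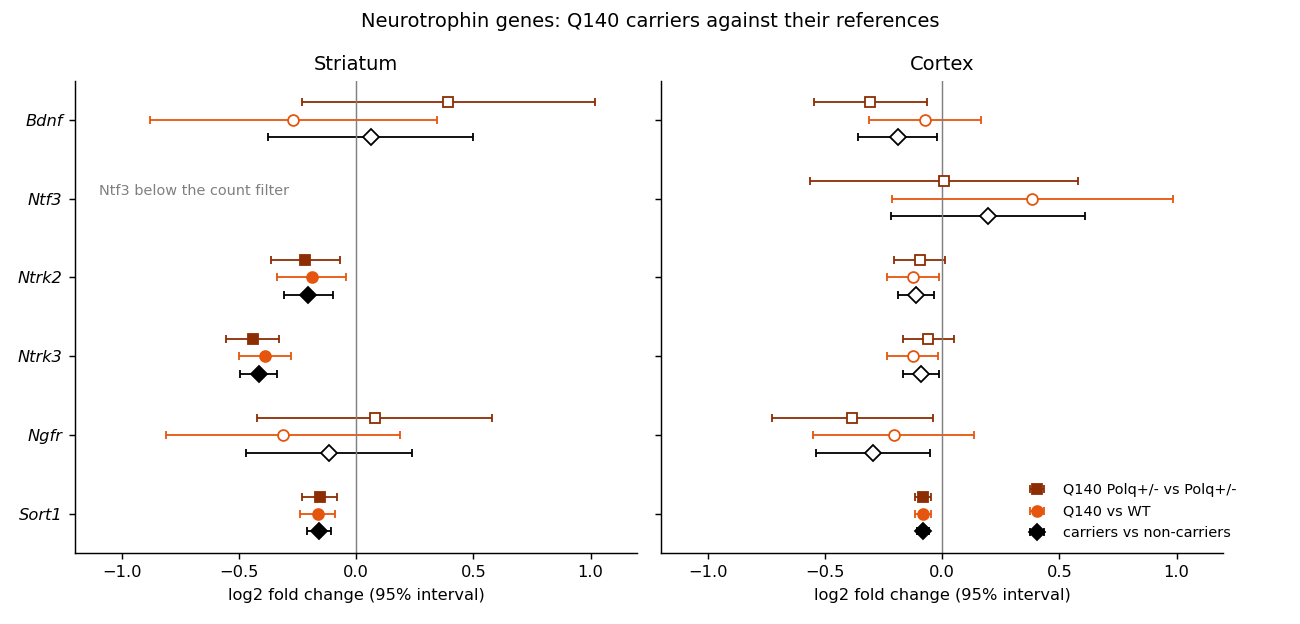
Log2 fold changes of the 6 genes with 95% intervals in striatum (left) and cortex (right), for Q140 Polq+/- against Polq+/- mice (squares), Q140 against WT mice (circles) and carriers against non-carriers (diamonds). Filled symbols were called at an adjusted p under 0.05. Ntrk3 in striatum lies furthest below 0, at -0.42 in carriers.

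No member was called for the Polq allele. Polq+/- against WT mice gave 0 calls among the members in striatum (0.0493% of all genes called) and 0 in cortex (0.0442%). Q140 Polq+/- against Q140 mice likewise gave 0 in striatum (0.0547% of all genes) and 0 in cortex (0.0552%). By edgeR, Polq itself was called only in cortex for Q140 Polq+/- against Q140 mice (log2 -1.14, adjusted p = 0.0394). For Polq+/- against WT mice it was -1.06 in cortex (adjusted p = 0.0797) and -0.902 in striatum (adjusted p = 0.938). In Q140 Polq+/- against Q140 striatum it was -1.18 (adjusted p = 0.926). The lack of calls among the members thus does not show equal levels. In these 4 comparisons no member had an unadjusted p under 0.05 and DESeq2 also called 0; the smallest p was that of cortical Bdnf in Q140 Polq+/- against Q140 mice (log2 -0.216, 95% interval -0.46 to 0.026, unadjusted p = 0.0783). The interaction, which asks whether the knock-in effect differs with the Polq allele, was called for 0 members and 0 genes in either tissue, although 893 genes in striatum and 863 in cortex had an unadjusted p under 0.05; DESeq2 also called 0. For striatal Ntrk3 the interaction was -0.053 (95% interval -0.21 to 0.11), for Ntrk2 -0.028 (95% interval -0.24 to 0.18) and for Sort1 0.0091 (95% interval -0.096 to 0.11). No difference of the knock-in effect between males and females was called for any member (edgeR called 0 of all genes in striatum and 0 in cortex, with 881 and 1102 at an unadjusted p under 0.05; DESeq2 called 0 and 1). The male minus female difference for striatal Ntrk3 was -0.043 (95% interval -0.21 to 0.13), and for cortical Bdnf -0.23 (95% interval -0.55 to 0.082). The intervals were wide for striatal Bdnf (-0.68 to 1.12) and Ngfr (-0.996 to 0.496).

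Since supply and receptors were measured in the same mice, cortical Bdnf was set against the 6 genes in striatum after removing genotype and sex means (log2 CPM, 32 mice, permutation test with 100000 resamples, 6 relations). None passed. For Sort1 Pearson's r was -0.294 (permutation p = 0.105, adjusted p = 0.478) and Spearman's rho -0.233 (permutation p = 0.2), and r was -0.262 without the 2 mice farthest in cortical Bdnf. For Ntrk3 r was -0.188 (permutation p = 0.304, adjusted p = 0.608) and rho -0.201 (p = 0.272), with r = -0.178 without those mice. For Ntrk2 r was -0.106 (permutation p = 0.562, adjusted p = 0.715) and rho -0.0491 (p = 0.789), with r = -0.102 without them. The other 3 had r of 0.067 (Bdnf), 0.255 (Ntf3) and 0.0758 (Ngfr), rho of 0.044, 0.256 and -0.0246, and adjusted permutation p of 0.478 or more. Without the 3 mice whose striatal libraries stood apart (29 mice), r was -0.345 for Sort1 (permutation p = 0.0671, adjusted p = 0.403), -0.106 for Ntrk3, -0.044 for Ntrk2, -0.0663 for Bdnf, 0.149 for Ntf3 and -0.191 for Ngfr. None passed there either, and the signs of r for Bdnf and Ngfr turned on those 3 mice. Without them, Spearman's rho kept its sign for Bdnf (0.0468) and Ngfr (-0.261) and changed it for Ntrk2 (0.0207).

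The spread of cortical Bdnf between mice was shared with other genes, of which only the nearest 5 are named here. After genotype and sex means were removed, the 5 genes most like it among 15160 over the 32 cortices were Dusp4 (Pearson's r 0.874), Irs2 (0.868), Dusp14 (0.854), Dnajb5 (0.85) and Gpr3 (0.845). Dusp4 and Dusp14 encode phosphatases, Dusp4 one that acts on MAP kinases, Irs2 an adaptor of the insulin receptor, Dnajb5 a co-chaperone and Gpr3 a receptor that raises cyclic AMP. Dusp4 ran from 7.8 to 21.4 CPM over the 32 cortices, a ratio of 2.74, and Bdnf from 22.5 to 47.3 CPM, a ratio of 2.1. These points share libraries and depth, and the likeness is a description. In carriers, Dusp14 was called (log2 -0.13, adjusted p = 0.0461), and the other 4 had log2 fold changes of -0.189 to -0.079 with adjusted p of 0.287 or more. The promoter windows of Irs2, Dusp14, Dnajb5 and Gpr3 held neither motif searched above.

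In striatum the nearest genes, 3 for each member, were chosen in the same way among 15248. They were Camk1d (0.947), Slc24a2 (0.947) and Atp2b2 (0.908) for Sort1, Cacna1e (0.902), Nf1 (0.888) and Grin2b (0.881) for Ntrk3, and Pdzd2 (0.865), Zdhhc14 (0.836) and Nebl (0.819) for Ntrk2, with Pearson's r in brackets. For Ngfr they were Adgra1 (0.897), Vamp1 (0.887) and Plcxd2 (0.879), which ranked 7, 1 and 10 in nearness without the 3 libraries that stood apart. The neighbours of Sort1, in the order given, ranked 4, 8 and 18 there. Those of Ntrk3 ranked 1, 2 and 4, and those of Ntrk2 ranked 2, 1 and 4. Over the remaining 29 libraries, a recomputation chosen after the values were seen, r was 0.824 to 0.859 for the neighbours of Ngfr, 0.812 to 0.864 for those of Sort1, 0.758 to 0.83 for those of Ntrk3 and 0.841 to 0.912 for those of Ntrk2. All 3 neighbours of Sort1 and all 3 of Ntrk2 were lower in carriers, from -0.371 for Zdhhc14 to -0.113 for Camk1d. Of those of Ntrk3, Cacna1e (-0.383) and Grin2b (-0.162) were lower and Nf1 was not called (0.067, adjusted p = 0.0864). The neighbours of Ngfr went the other way. Plcxd2 (0.336, adjusted p = 0.00201) and Vamp1 (0.331, adjusted p = 0.0499) were higher by edgeR, and Adgra1 was not called (0.223, adjusted p = 0.102).

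**Figure D5:**
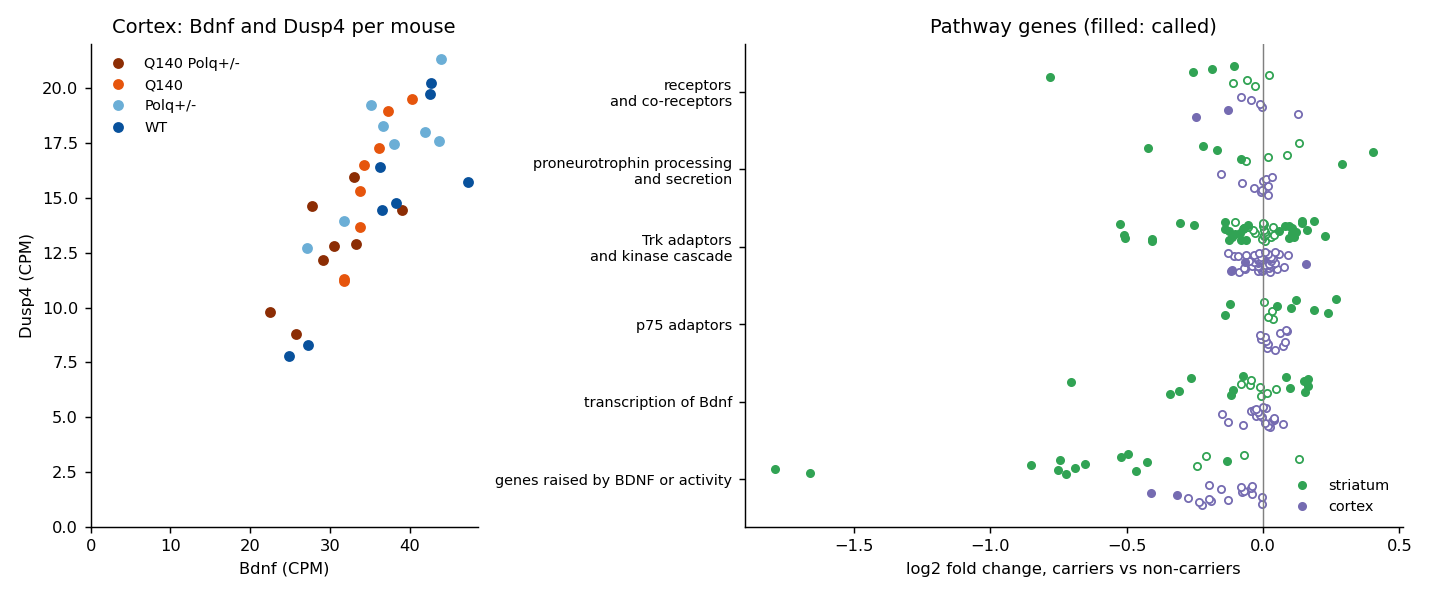
Left, Bdnf against Dusp4 in the 32 cortices in CPM, coloured by genotype. Right, log2 fold change of the pathway genes in carriers against non-carriers, by list, with striatum above cortex; filled points were called. The genes raised by BDNF or activity lie furthest left in striatum, where 13 of 17 were called lower, against 21.2% of all genes.

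Around these 6 genes, 120 genes of neurotrophin signalling were examined in lists chosen by function, of which 117 were tested in each tissue. In striatum 49 were lower and 27 higher in carriers, 65% of those tested against 44.8% of all genes. In cortex 7 were lower and 1 higher, 6.84% against 2.46%. The lists were chosen with earlier results of these data known and were not matched to all genes in level. The shares therefore describe these lists, and their difference from all genes was not tested. On the deposited FPKM the calls over all genes shifted upward, with 75% of striatal calls higher against 52.6% on counts, and 62.7% of cortical calls against 34.5%.

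Genes that BDNF or neuronal activity raises had the clearest direction in striatum. Of 17 tested, 13 were lower and 0 higher in carriers, where 44.8% of all genes were called, 21.2% lower. The median log2 fold change of the 17 was -0.52, against 0.0032 for all genes. Homer1, a scaffold of the postsynaptic density, averaged 196 CPM in carriers and 353 CPM in non-carriers (log2 -0.85, adjusted p = 2.72e-18). The transcription factor Egr3 averaged 99 CPM in carriers and 160 CPM in non-carriers, the receptor tyrosine kinase inhibitor Spry2 62.1 and 89 CPM, and the secreted neuropeptide precursor Vgf 235 and 332 CPM. Many of these genes are also made in spiny neurons, whose markers fell in the same libraries. The part of these neurons in the values was not tested. In cortex 2 of 18 were lower, Nptx2 (40.3 CPM in carriers, 53.6 CPM in non-carriers, adjusted p = 0.00362) and Homer1 (256 and 319 CPM, adjusted p = 0.00687). There 2.46% of all genes were called, 1.61% lower.

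Of the other receptors and co-receptors, 4 of 8 were lower in striatum and none was higher, where 44.8% of all genes were called and 21.2% were lower. Sorcs2 (log2 -0.26, adjusted p = 0.000542), Sorcs3 (-0.19, adjusted p = 0.00016) and Sorl1 (-0.11, adjusted p = 0.00542) are relatives of sortilin, and Rtn4r (-0.78, adjusted p = 1.13e-06, at 1.12 CPM in carriers and 1.92 CPM in non-carriers) encodes the Nogo receptor, which uses p75 as a partner. In cortex Lingo1 (456 CPM in carriers, 541 CPM in non-carriers, log2 -0.25, adjusted p = 8.33e-07) and Rtn4r (111 and 121 CPM, -0.13, adjusted p = 0.0027) were the 2 of 7 called. Of all genes in cortex 2.46% were called, 1.61% lower. LINGO-1 and the Nogo receptor form a complex with p75, whose own gene was not called there.

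The kinase cascade below TrkB and TrkC changed in both directions in striatum. Of 50 genes 19 were lower and 13 higher, with a median of -0.0024, where 44.8% of all genes were called, 21.2% lower. The kinase Akt2 averaged 87.7 CPM in carriers and 116 CPM in non-carriers, the GTPase Hras 108 and 153 CPM, the kinase Rps6ka5 57.2 and 82.2 CPM and the adaptor Shc2 51.4 and 63.4 CPM (log2 -0.524 to -0.304, adjusted p of 3.13e-12 or less by edgeR). In cortex 4 of 50 were called, where 2.46% of all genes were. Camk2a (-0.12), Camk4 (-0.11) and Pdpk1 (-0.065) were lower, and Mapk3, the gene of ERK1, was higher (0.16, adjusted p = 0.0398).

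Of 12 adaptors of p75, 6 were higher and 2 lower in striatum, where 44.8% of all genes were called and 21.2% were lower. Maged1 averaged 584 CPM in carriers and 513 CPM in non-carriers, Bex3 151 and 128 CPM, and Zfp110 16.8 and 14 CPM, all of which bind the p75 tail. Of 10 genes of proneurotrophin processing and secretion, 4 were lower and 2 higher. The convertase Pcsk1 (log2 0.40, adjusted p = 3.48e-08) and the vesicle priming factor Cadps (0.29, adjusted p = 7.47e-07) were higher, and the convertase Pcsk2 (-0.17, adjusted p = 1.26e-07) and Plat (-0.22, adjusted p = 6.21e-05), whose protease makes plasmin from plasminogen, lower. Of 20 genes that regulate Bdnf transcription, 7 were lower and 6 higher, with Creb1 (0.16) and Mef2c (0.17) higher and Crem (-0.31) and Srf (-0.26) lower. In cortex, where 2.46% of all genes were called, 0 of 12, 0 of 10 and 0 of 20 genes of these 3 lists were called by edgeR. The 3 lists had 3, 1 and 1 genes at an unadjusted p under 0.05. Their leading genes were Traf6 (0.088, unadjusted p = 0.00261), Scg2 (-0.155, unadjusted p = 0.00195) and Crem (-0.13, unadjusted p = 0.0076).

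The remaining genes lie on GRCm38 at chromosome 6, 126101412 to 126166910 (Ntf3, minus strand), chromosome 13, 58806569 to 59133970 (Ntrk2, plus), chromosome 7, 78175959 to 78738012 (Ntrk3, minus), chromosome 11, 95568818 to 95587735 (Ngfr, minus) and chromosome 3, 108284082 to 108361511 (Sort1, plus). Ntrk2 has 10 annotated transcripts, 7 of them protein-coding, and Ntrk3 has 20, of which 6 are protein-coding. The values are sums over all of these, so receptors with and without the kinase are not separated. Exons of Bdnf overlap those of the antisense gene Gm45346, and exons of Sort1 those of the antisense gene Gm12523. Whether the counting used the strand is not given in the labels, so reads from these partners may not be separated.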

How the data were processed

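Gene-level RNA-seq was measured in 64 libraries of striatum and cortex from 32 mice. RNA was extracted with a Qiagen RNeasy kit and libraries were made with an Illumina TruSeq stranded kit, per the labels' protocols. STAR 2.7.5c, SAMtools 1.10, HTSeq 0.12.3 and the GRCm38 (mm10) build are named per the submitters' processing notes. For the annotation and strand setting, no value was given in the sources used here. Counts per gene, unnormalized, and FPKM values were deposited by the authors for 48795 genes.

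Groups, sex and mouse were taken from the labels. Counts were analysed with edgeR 4.0.16 in R 4.3.3 (TMM scaling, filterByExpr by genotype, robust quasi-likelihood fit with sex as a covariate). Each tissue was fitted on its 32 libraries, and tissue differences on all 64 with the mouse as a block. Benjamini-Hochberg adjustment ran over all genes tested (18270 in striatum, 18116 in cortex, 19091 jointly), and a gene was called at an adjusted p under 0.05. SE was the log2 fold change divided by the root of F. Carriers against non-carriers is the mean of both knock-in contrasts, which therefore share samples with it. CPM are TMM-scaled within a tissue. Levels of the 6 genes between genes or tissues are given as FPKM, and markers are set across tissues in CPM only as a check of the labels. The fits were checked on simulated counts.

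The members and gene lists were chosen with earlier results of these data known, and the cerebellar granule markers were added after the count tables had been seen. Of each pathway list, up to 4 genes with the smallest unadjusted p and a mean of at least 1 CPM were named, and 1 gene that this rule names is not reported here. Genes most like a member were the 5 (Bdnf in cortex) or 3 (others in striatum) with the highest Pearson r of log2 CPM residuals. Promoter sequences came from RefSeq (GRCm38.p6), which matched Bdnf, Ntf3, Ntrk2 and Ngfr; positions came from a GENCODE annotation of GRCm38. Alternatives were DESeq2 1.42.0, its size factors, limma 3.58.1 on counts and on log2 FPKM (pseudocounts 0.1 and 1), no low-count filter, other model terms, a threshold of 0.1 and leaving out libraries. Replicate numbers were not used to pair mice: the deviations of same-numbered libraries had a median correlation of -0.0317 in striatum and -0.0388 in cortex. The counts of no 2 libraries of a group agreed within sampling noise (chi-square per degree of freedom of at least 2.78). Intervals for folds cover the spread between mice.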

Additional observations from a re-analysis of the deposited data

Results flagged for a closer look

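In WT striatum, Ngfr was highest in male replicate 2, at 8.16 CPM against 3.5 CPM in the next library and 2.17 CPM in the lowest (gap 0.778 of the group's range). That library also had the highest Bdnf (34 reads) and Ntf3 (9 reads) of all 32 striata and 256 CPM of cerebellar granule markers, against 30.3 CPM or less elsewhere, and their part in its Ngfr was not tested. In the same group Sort1 was lowest in male replicate 3, at 442 CPM against 532 CPM in the next library, and Ntrk3 was also lowest there among non-carriers, at 217 CPM. In all, such a gap past the 95% critical value was found in 2 of 48 groups of 8 libraries, and chance alone gives about 1 in 20. The effect of the knock-in differed between striatum and cortex, striatum minus cortex, for Ntrk2 (-0.0941), Ntrk3 (-0.325) and Sort1 (-0.0828) by the test of the difference itself.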

How the results depend on the processing

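Over 1097 values of single genes under other settings, 1078 kept their side of the threshold and their direction if called, 19 lost their call and 0 called values changed sign; of the values called in neither fit, 28 changed sign. In striatum, Ntrk3 and Sort1 were called in every setting run for the 3 knock-in comparisons. Their size varied more. Over 13 alternatives the carrier value ran from -0.447 to -0.311 for Ntrk3, against -0.417 in the main fit. For Sort1 it ran from -0.187 to -0.0919, against -0.16. The number of members called stayed within 1.5 times for 191 of 199 counts. The exceptions were as follows. The difference between tissues was called for 1 member (Ntrk3) on FPKM with either pseudocount, against 3. In cortex, Q140 Polq+/- against Polq+/- mice gave 0 calls, against 1 (Sort1), with no sex term and without the 4 mice of low Polq. Q140 against WT gave 0 in cortex, against 1, with no low-count filter, with no sex term, on the 2 groups alone and with the plate column as a factor, and 0 to 1 when each mouse was left out in turn. In striatum, leaving out each mouse gave 2 to 3 members in Q140 against WT, for the 11 mice named with Ntrk2. With the same-numbered mice as a replicate block, Q140 against WT in striatum gave 2 members, since Ntrk2 (-0.184, adjusted p = 0.0659) was not called; 3 of 32 libraries in striatum and 1 of 32 in cortex correlated best with their own number, so the numbers are not taken to pair mice. The block changed no other member's call. For the fits on all 64 libraries with a mouse left out, the dispersions of the full fit were kept. Leaving out the 3 libraries that stood apart gives no value in cortex, and fitting the compared groups alone gives none for carriers or the interaction.

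Intervals were wide for Bdnf and Ngfr in striatum and for Ntf3 and Ngfr in cortex. Reads were few for Bdnf (1 to 34 in a library) and Ntf3 (0 to 9) in striatum. The same held for Ntf3 (4 to 35) and Ngfr (16 to 53) in cortex. Striatal Ngfr had more, 60 to 306 reads. The parts of depth and of spread between libraries in these intervals were not tested. Calls in cortex rest on small differences in a gene with 22701 or more reads in each library.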
